A study of Mus musculus with 12 samples.

Results

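Cytosolic ribosomal protein genes encode the protein parts of the large and small ribosomal subunits and were followed across all 4 groups of the study. They were found by symbol among the array probes: Rpl or Rps with a number and an optional letter, Rplp0, Rplp1, Rplp2 and Rpsa, leaving out the Rps6k kinases, Rps19bp1 and symbols of pseudogenes. This gave 60 of the 19057 genes on the array (89 of 45281 probes), of which 57 (35 of the large and 22 of the small subunit) were among the 10596 genes tested. Rpl3l, Rps4l and Rpsa did not reach detection on all 3 samples of any group and were not tested.

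The ribosome reads messenger RNA on its small subunit and joins amino acids on its large subunit, and each subunit is built from ribosomal RNA and 1 copy of most of these proteins. In vertebrates their messenger RNAs begin with a cytosine followed by a run of pyrimidines, the TOP motif, through which the mTORC1 pathway and LARP1 control how fast they are translated. A change in RNA level, as measured here, is therefore not a measure of protein made. In the artery wall, endothelial cells under slow and reversing flow are known for an inflammatory state, and leukocytes enter such regions.

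Male C57Bl6 mice, listed as 9 weeks old in the sample labels and as younger in the series description, received daily intraperitoneal injections of saline or of 5-aza-2'-deoxycytidine (5Aza), which blocks DNA methyltransferases, at 0.2 mg/kg/day for 3 weeks. In every mouse, 3 of 4 caudal branches were tied on the left carotid artery only, which leaves low and oscillating flow in that vessel. After 7 days, RNA was flushed from the lumen of the ligated left artery (LCA) and of the right artery (RCA), which was not ligated, and each sample pooled 3 arteries. Each vessel under each treatment is a group, making 4 groups of 3 samples on Illumina bead arrays; samples are named here with the number in the sample's title. The labels name no sham operation, so ligation, flow and body side cannot be told apart, and p-values measure only the spread between these pools. In bulk RNA, fewer cells of a type and less RNA per cell cannot be told apart.

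Between 21443 and 23251 probes were detected per array, and the small number of arrays limits precision. The saline LCA samples were not alike. Over all genes saline LCA 1 correlated with the other saline LCA samples at 0.857 and 0.856, while those correlated at 0.971. With samples of the other groups saline LCA 1 correlated at 0.915 to 0.94. There saline LCA 2 and saline LCA 4 correlated at only 0.801 to 0.887. The 13 endothelial markers tested were detected on all arrays of every group. Macrophage markers differed between the groups, and their levels are given beside the results. Levels below are log2 normalised intensity, and changes are differences of group means on that scale, LCA minus RCA unless stated. A gene was counted as higher or lower when limma's moderated test gave a Benjamini-Hochberg adjusted p under 0.05 over all genes tested.

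Ribosomal protein genes were, as a group, higher in ligated than in unligated arteries under saline and under 5Aza. Averaged over the 57 genes, the level was 9.45, 9.57 and 9.57 in saline LCA against 9.15, 9.23 and 9.27 in saline RCA. Under 5Aza it was 9.57, 9.53 and 9.51 in LCA against 9.17, 9.30 and 9.35 in RCA. Within each treatment every LCA sample lay above every RCA sample. The median change was 0.36 under saline, against -0.05 over all genes tested, and 0.26 under 5Aza, against -0.02 over all genes. Under saline 46 of the 57 genes (80.7%) had a change above 0, against 45.7% of all genes, and under 5Aza 51 of 57 (89.5%), against 47.7%.

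**Figure D1:**
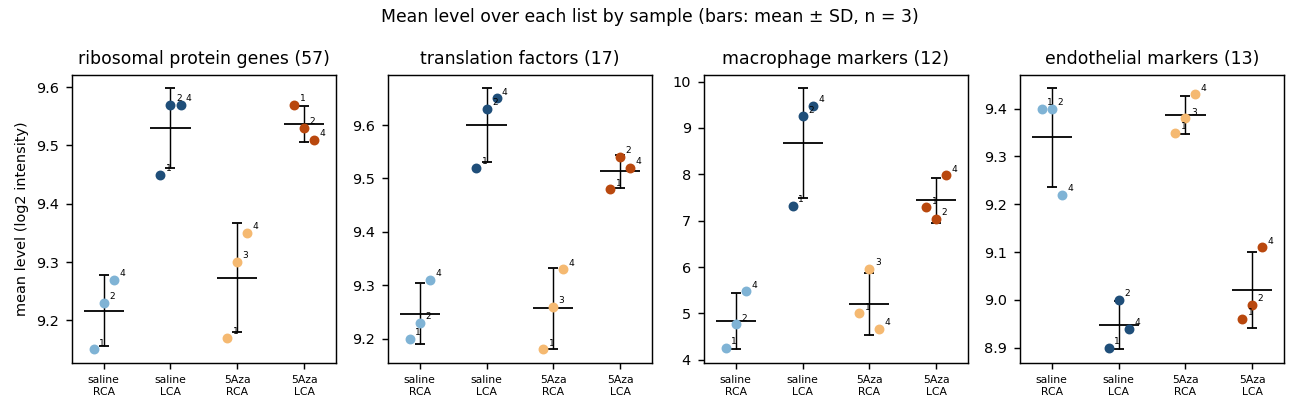
Mean level (log2 intensity) of each gene list in each of the 12 samples, by group; the number in each title is the number of genes averaged, points are samples marked with their title number, and bars give the group mean ± SD (n = 3). Ribosomal protein genes, translation factors and macrophage markers were higher in every LCA sample than in every RCA sample of the same treatment, and endothelial markers were lower. The vertical axes differ between panels and do not start at 0.

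The macrophage markers also differed between ligated and unligated arteries. Under saline all 12 tested were higher in LCA, with a median change of 3.86, and under 5Aza 2 of 12 passed the test, with a median change of 2.23. Their mean level lay between 7.32 and 9.48 in saline LCA, 4.26 and 5.48 in saline RCA, 7.04 and 7.98 in 5Aza LCA, and 4.67 and 5.96 in 5Aza RCA. Between treatments in LCA, 5Aza minus saline, the median change of ribosomal protein genes was 0.02 and that of the macrophage markers -1.17. All 12 were detected on all saline LCA arrays, while C1qa, C1qb, C1qc, Fcer1g and Adgre1 were detected on no saline RCA array. Most endothelial markers went the other way under saline, 4 of 13 (Tek, Vwf, Icam2 and Ramp2) being lower, with a median change of -0.43. The saline changes of 4 of the 13 were above 0, up to 1.02. Under 5Aza 1 of 13 endothelial markers was lower, with a median change of -0.32, and 2 had a change above 0. Under saline 5 of 6 markers of cycling cells, 2 of 2 of neutrophils and 2 of 5 of red cells and platelets were also higher in LCA. Under 5Aza the medians of 8 fibroblast markers (1.39), 2 adipocyte markers (2.06) and 5 red cell and platelet markers (1.84) were above 0, with 0 of each passing the test. The mean level of each of these 3 lists was higher in every 5Aza LCA sample than in every 5Aza RCA sample, at 8.28 to 8.73 against 7.04 to 7.72 for fibroblast markers. Their part in the ribosomal protein result was not tested.

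Gene by gene, ligated and unligated samples often did not overlap. Under saline 28 of the 57 genes had all LCA samples above all RCA samples (49.1%, against 13.3% of all genes), and 2 had them all below (16.4% of all genes did). Under 5Aza 34 lay above (59.6%, against 10.9% of all genes) and 1 below (12.2% of all genes). The 1 below was Rpl39l, which was kept for testing only through its detection in 5Aza RCA. In 23 genes (40.4%), 14 of the large and 9 of the small subunit, LCA lay above RCA in both treatments, against 3.95% of all genes, and in 0 it lay below in both. The 23 were Rpl7a, Rpl10a, Rpl12, Rpl17, Rpl19, Rpl27, Rpl28, Rpl31, Rpl32, Rpl35, Rpl36a, Rpl36al, Rpl37, Rplp1, Rps2, Rps4x, Rps7, Rps10, Rps15, Rps16, Rps19, Rps26 and Rps27l. The 2 flow comparisons share no samples. This count depended on the scaling between arrays: with arrays set only to a common median in place of quantile normalisation, 5 of 57 genes (8.77%) lay above in both, against 2.52% of all genes. With that scaling the median change of ribosomal protein genes was 0.25 under saline, where the median of all genes was -0.09.

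**Figure D2:**
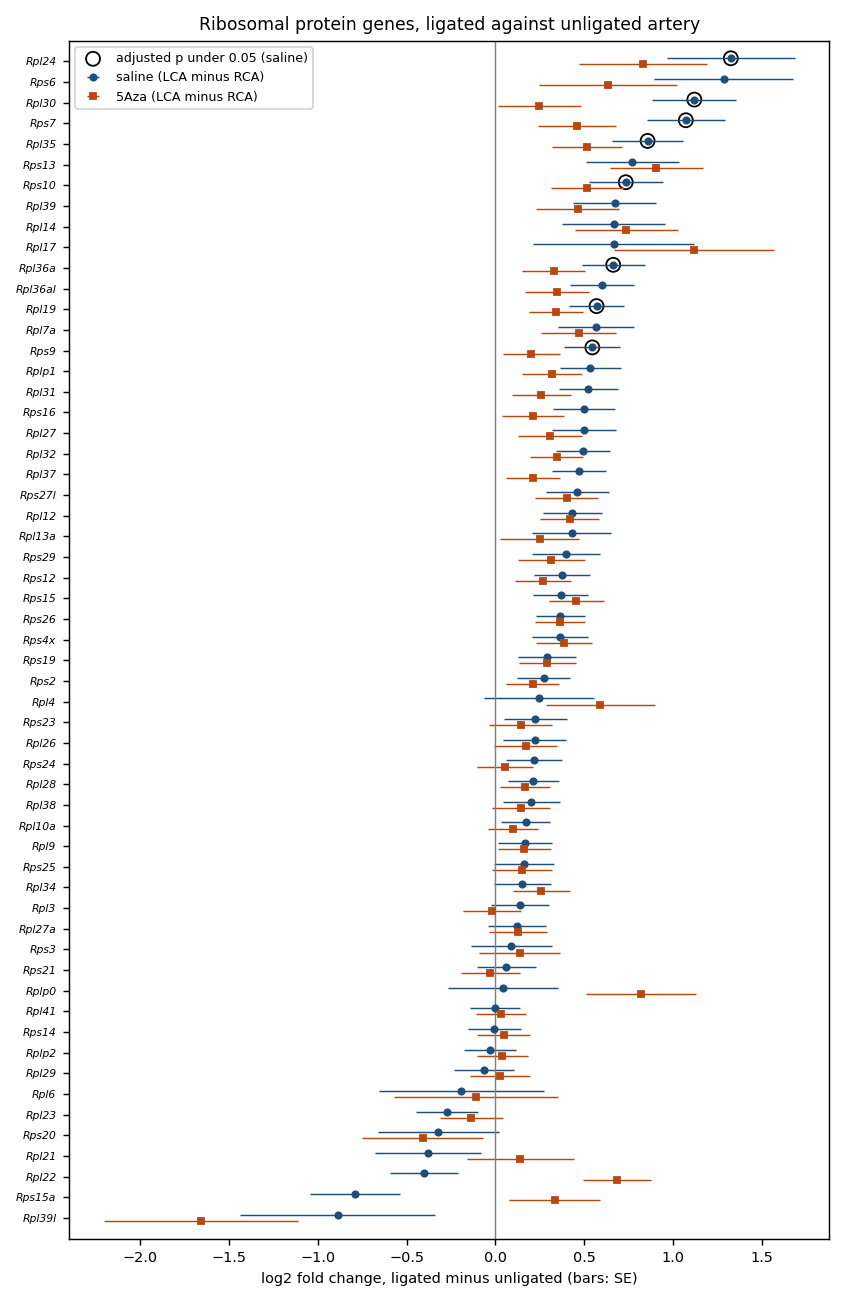
Change between ligated and unligated artery (log2 fold change, LCA minus RCA; bars are the SE of the fit) for each of the 57 ribosomal protein genes under saline (blue circles) and 5Aza (orange squares), ordered by the saline change. Black rings mark the 8 genes with adjusted p under 0.05 under saline; most points of both treatments lie to the right of 0, and Rpl39l, Rps15a and Rpl22 have the lowest saline values.

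Few single genes passed the test. Under saline 8 of 57 (14%) were higher in LCA, where 5.29% of all genes were, and 0 were lower, where 6.24% of all genes were; at an unadjusted p under 0.05 the counts were 26 (45.6%) and 1 (1.75%), against 13.5% and 16% of all genes. Of the 8, 5 belong to the large subunit (Rpl19, Rpl24, Rpl30, Rpl35 and Rpl36a) and 3 to the small (Rps7, Rps9 and Rps10). The count was not stable: it was 22 of 58 (20 higher, 2 lower; 37.9%) without saline LCA 1, where 30.9% of all genes were called, 0 when saline LCA 2, saline LCA 4 or saline RCA 1 was left out, 1 when saline RCA 2 was and 4 (3 higher, 1 lower) when saline RCA 4 was. In these last 5 fits 1.69% to 3.73% of all genes were called. It also fell to 5 without 5Aza LCA 1 or 5Aza LCA 4, and to 3 without 5Aza LCA 2 or 5Aza RCA 3, where 7.97% to 9.75% of all genes were called. With only the saline groups in the fit it was 0, and 1.22% of all genes were called.

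Stretches of promoter are shown for genes that were higher under saline, for Rps6, the ribosomal protein that S6 kinases phosphorylate, and for Rps15a, which went the other way. Each runs from 60 bases before the annotated start to the 20 bases from it, 5′ to 3′ on the gene's strand, from RefSeq (GRCm38.p6). Capitals mark the longest run that begins with C and holds at least 7 C or T bases, searched from 30 bases before to 20 after the start on the gene's strand.
Rps7, chr12:28635934-28636013, minus strand: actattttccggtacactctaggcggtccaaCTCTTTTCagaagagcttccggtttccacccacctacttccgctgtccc
Rpl35, chr2:39005112-39005191, minus strand: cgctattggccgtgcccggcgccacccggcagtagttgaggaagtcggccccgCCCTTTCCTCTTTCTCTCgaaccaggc
Rps10, chr17:27635225-27635304, minus strand: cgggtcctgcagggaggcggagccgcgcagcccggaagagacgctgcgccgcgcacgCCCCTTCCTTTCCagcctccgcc
Rps9, chr7:3703981-3704060, plus strand: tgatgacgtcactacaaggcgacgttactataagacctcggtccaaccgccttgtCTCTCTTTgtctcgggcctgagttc
Rps6, chr4:86857348-86857427, minus strand: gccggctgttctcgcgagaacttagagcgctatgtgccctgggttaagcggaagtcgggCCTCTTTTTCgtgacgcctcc
Rps15a, chr7:118116128-118116207, minus strand: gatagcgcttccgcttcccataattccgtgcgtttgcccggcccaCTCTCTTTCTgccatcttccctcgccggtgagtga
Rpl24, chr16:55966215-55966294, plus strand: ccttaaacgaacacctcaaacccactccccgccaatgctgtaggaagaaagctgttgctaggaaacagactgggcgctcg
Rpl36a, chrX:134585594-134585673, plus strand: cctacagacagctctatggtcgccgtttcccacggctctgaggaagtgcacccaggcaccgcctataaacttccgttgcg
In Rpl35, Rps10, Rps9 and Rps6 the run overlapped the annotated start, which is where a TOP motif lies, while in Rps7 it began 29 bases before it. No such run was found in the windows of Rpl24 and Rpl36a. Promoters were listed for 47 of the 57 genes. Of these, 28 (59.6%) had such a run anywhere in the searched window of a listed start, against 26.3% of 27025 genes. A counted run need not overlap the start, so these are not shares of genes with a TOP motif. CCGGAAG, the core that ETS-family factors bind, searched on both strands over 300 bases, was present in 21 of 47 (44.7%) against 9.93% of all, and GCCATNTT, the core bound by YY1, in 7 (14.9%) against 6.96%. A pyrimidine run can overlap the other-strand form of CCGGAAG. The median change of genes with a run was 0.37 under saline and 0.28 under 5Aza (28 genes), against 0.27 and 0.21 in those without (19 genes), so the genes that rose were found with and without it.

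Among small subunit genes, 3 passed the test under saline and the median change was 0.37 under saline and 0.28 under 5Aza. Rps7, whose protein can also bind the p53 regulator MDM2, was at 8.66, 9.17 and 9.37 in saline LCA and at 7.67, 7.99 and 8.33 in saline RCA. Under 5Aza it was at 8.53, 8.40 and 8.29 in LCA and at 7.86, 8.01 and 7.97 in RCA. In both treatments every LCA sample of Rps7 lay above every RCA sample, and the gap was wider under saline. Its change was 1.07 (SE 0.22, limma adjusted p = 0.0154, 2.10-fold) under saline and 0.46 (SE 0.22, adjusted p = 0.428) under 5Aza, and the difference between these changes, -0.61 (SE 0.31), did not pass the test (adjusted p = 0.542). Rps10, mutated in some families with Diamond-Blackfan anaemia, was at 8.27, 8.90 and 8.99 in saline LCA and at 7.90, 8.14 and 7.93 in saline RCA, a change of 0.73 (SE 0.21, adjusted p = 0.0435). For Rps10 the samples were also separated under 5Aza, where LCA stood at 8.81, 8.67 and 8.87 and RCA at 8.23, 8.09 and 8.47. Rps9, a protein of the small subunit near the entry of the messenger RNA, was at 10.31, 10.50 and 10.57 against 9.81, 9.86 and 10.08 under saline, a change of 0.55 (SE 0.16, adjusted p = 0.0466). Under 5Aza the Rps9 samples touched: the lowest LCA and the highest RCA sample were both at 10.09.

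Rps6 had the second largest change under saline and did not pass the test. It was at 6.97, 8.58 and 8.73 in saline LCA and at 6.52, 6.85 and 7.05 in saline RCA, so that saline LCA 1 lay within the RCA range and the other LCA samples far above it. The change was 1.29 (SE 0.39, adjusted p = 0.0526), and 1.85 without saline LCA 1 (adjusted p = 0.000185). Under 5Aza the LCA samples of Rps6 were at 7.69, 7.17 and 7.91, all above the RCA samples at 7.00, 6.90 and 6.97.

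Among large subunit genes, 5 passed under saline and the median change was 0.25 under saline and 0.26 under 5Aza. Rpl24, mutated in the Belly spot and tail mouse, had the largest change of all 57. It was at 8.42, 9.63 and 9.79 in saline LCA and at 7.65, 8.04 and 8.18 in saline RCA, which gave 1.33 (SE 0.36, adjusted p = 0.0383, 2.51-fold). Under 5Aza the Rpl24 samples were at 9.01, 8.68 and 9.00 in LCA and at 7.69, 7.82 and 8.71 in RCA, where 5Aza RCA 4 reached the LCA range. Rpl30, which in yeast binds its own transcript and blocks its splicing, was at 7.97, 8.78 and 8.54 in saline LCA against 7.05, 7.40 and 7.48 in saline RCA. Its change was 1.12 (SE 0.24, adjusted p = 0.0172), while under 5Aza the groups overlapped, with a change of 0.25. Rpl35, at the exit of the tunnel through which the new peptide leaves, was at 10.37, 10.69 and 10.86 in saline LCA and at 9.49, 9.93 and 9.93 in saline RCA.

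That change of Rpl35 was 0.86 (SE 0.20, adjusted p = 0.0227), and its 5Aza samples were also separated, at 10.27, 10.43 and 10.44 against 9.65, 9.85 and 10.09. Rpl19, a protein that reaches across to the small subunit, had the tightest LCA samples of the 8, at 9.97, 10.02 and 9.99 against 9.31, 9.51 and 9.44 in saline RCA, a change of 0.57 (SE 0.15, adjusted p = 0.037). Under 5Aza Rpl19 was also separated, at 9.77, 9.86 and 9.75 in LCA and 9.26, 9.52 and 9.58 in RCA. Rpl36a was at 10.20, 10.70 and 10.53 against 9.72, 9.94 and 9.78 under saline, a change of 0.66 (SE 0.18, adjusted p = 0.0365).

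Leaving out each array in turn, Rps7, Rpl30 and Rpl35 each passed in 8 of 12 fits and did not without saline LCA 2, saline LCA 4, saline RCA 1 or saline RCA 2. Their changes stayed above 0 throughout, at 0.91 to 1.28 for Rps7, 0.95 to 1.36 for Rpl30 and 0.71 to 0.99 for Rpl35. Rpl36a and Rpl19 passed in 5 of the 12 fits and Rpl24 in 3, with saline RCA 4, 5Aza LCA 2 and 5Aza RCA 3 among the arrays whose removal ended the call, and for Rpl24 also 5Aza LCA 1 and 5Aza LCA 4. Rps10 and Rps9 passed in 1, the fit without saline LCA 1.

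**Figure D3:**
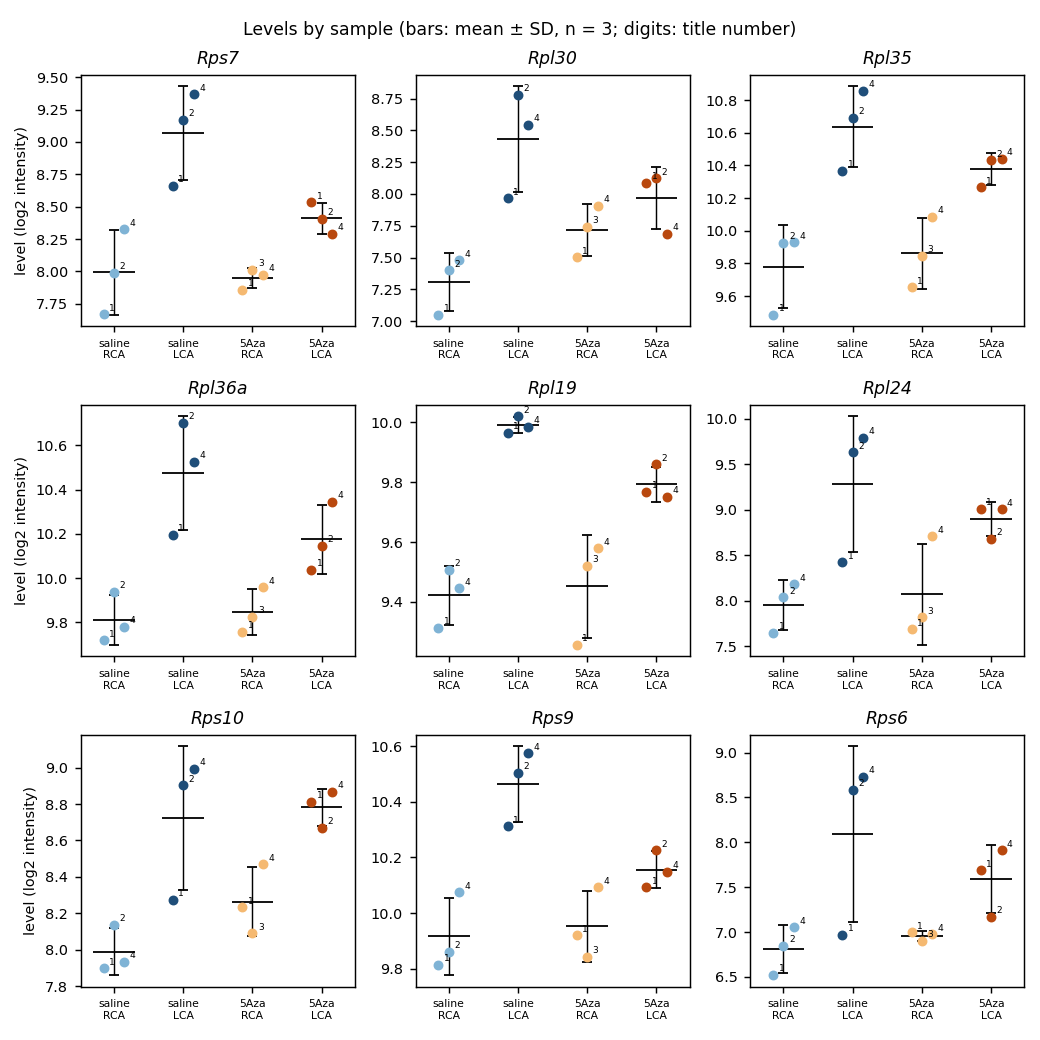
Level (log2 intensity) in each of the 12 samples of the 8 ribosomal protein genes higher in saline LCA (ordered by adjusted p) and of Rps6; points are samples marked with their title number, and bars give the group mean ± SD (n = 3). All saline LCA samples of the 8 genes lie above all saline RCA samples, and saline LCA 1 is the lowest of its group in each; for Rps6 it lies at 6.97, within the RCA range. The vertical axes differ between panels and do not start at 0.

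The genes just inside the threshold, Rps10 at 0.0435 and Rps9 at 0.0466 in adjusted p, were little different from those just outside it. These were Rpl36al (change 0.60, adjusted p = 0.0508), Rps6, Rpl32 (0.49, 0.0536), Rpl31 (0.52, 0.0586), Rplp1 (0.54, 0.0609) and Rps15a (-0.79, 0.0633).

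Under 5Aza 0 of the 57 genes passed limma's test, where 0.453% of all genes did in either direction, and at an unadjusted p under 0.05 there were 16 higher (28.1%) and 1 lower (1.75%), against 6.09% and 6.11% of all genes. Fitting every probe on its own also gave 0. Rps13, a protein of the small subunit, had a change of 0.91 (SE 0.26, adjusted p = 0.184), with LCA at 9.70, 9.59 and 9.70 and RCA at 8.54, 8.76 and 8.97. These values of Rps13 are from its brightest probe, and its other kept probe had a change of -0.15. Under saline the change of its brightest probe was 0.77 (adjusted p = 0.074), at 8.86, 9.65 and 9.87 against 8.37, 8.68 and 9.02, where the groups overlapped. Rpl17 had the largest change under 5Aza, 1.12 (SE 0.45, adjusted p = 0.345), and 5Aza LCA 1 at 10.12 set it: the other LCA samples were at 8.29 and 7.96, against 7.40, 7.86 and 7.76 in RCA. Without 5Aza LCA 1 the change of Rpl17 was 0.45. Rps15 was at 10.32, 10.25 and 10.29 against 9.76, 9.81 and 9.93 (change 0.46, adjusted p = 0.256). Rpl14 had a change of 0.74 (adjusted p = 0.335).

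The stalk proteins Rplp0, Rplp1 and Rplp2, which recruit elongation factors to the large subunit, had unequal values, and none passed the test. Rplp1 was at 11.06, 11.42 and 11.45 in saline LCA and at 10.63, 10.76 and 10.93 in saline RCA, and under 5Aza at 11.04, 10.88 and 11.13 against 10.62, 10.76 and 10.73, so that its groups were separated in both treatments. Rplp2 lay between 10.17 and 10.40 in all 12 samples, with changes of -0.03 and 0.04. For Rplp0 the change was 0.04 (SE 0.31, adjusted p = 0.947) under saline, with LCA samples from 6.38 to 7.70, and 0.82 (SE 0.31, adjusted p = 0.32) under 5Aza, with LCA at 7.36, 7.80 and 7.07 and RCA at 6.26, 6.67 and 6.85. These are values of its brightest probe, and its other kept probe had 0.53 under saline and 0.41 under 5Aza.

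Some of the members have a close relative. Rpl39l, a copy of Rpl39 known for its expression in the testis, was near background: it was detected on no saline LCA array, 2 saline RCA arrays, 1 5Aza LCA array and 3 5Aza RCA arrays. It was at 6.57, 4.27 and 4.72 in saline RCA and at 6.05, 6.97 and 5.01 in 5Aza RCA, and between 4.21 and 4.59 in the 6 LCA samples. Against the lowest signal above background, saline RCA was at least 1.65-fold higher (adjusted p = 0.308), but this rested on saline RCA 1, and without it the bound was 1.02-fold. Under 5Aza the difference of the measured means was -1.66 (SE 0.55, adjusted p = 0.242), where only 1 of the 3 LCA arrays detected it. Rpl39l was kept for testing only because all 3 5Aza RCA arrays detected it, the group where it was highest. Its low 5Aza value is therefore no separate evidence, and it is the 1 gene counted as below and as lower under 5Aza. Rpl39 itself was at 10.04, 10.87 and 10.96 in saline LCA and at 9.74, 9.99 and 10.12 in saline RCA (change 0.67, adjusted p = 0.0786). Rpl36al, nearly identical to Rpl36a, had changes of 0.60 and 0.35 where Rpl36a had 0.66 and 0.33, and binding of both transcripts to the same probe was not checked. Rps27l, a relative of Rps27 that p53 induces, was separated in both treatments, with changes of 0.46 (adjusted p = 0.103) and 0.40 (adjusted p = 0.389).

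**Figure D4:**
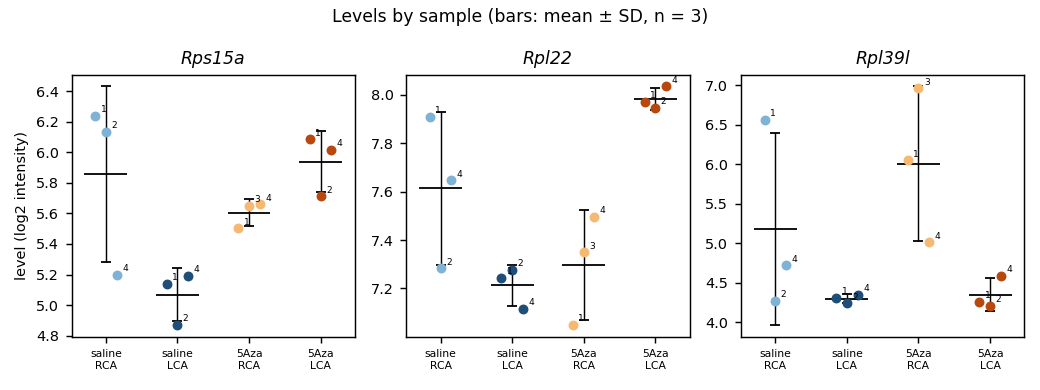
Level (log2 intensity) in each of the 12 samples of Rps15a, Rpl22 and Rpl39l; points are samples marked with their title number, and bars give the group mean ± SD (n = 3). For Rps15a and Rpl22 the saline LCA samples lie below and the 5Aza LCA samples above the RCA samples of the same treatment, and Rpl39l is between 4.21 and 4.59 in all 6 LCA samples. The vertical axes differ between panels and do not start at 0.

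Rpl22, which in mice is needed for the development of alpha-beta T cells, had a negative change under saline and a positive one under 5Aza. It was at 7.24, 7.28 and 7.12 in saline LCA and at 7.91, 7.28 and 7.65 in saline RCA, a change of -0.40 (SE 0.19, adjusted p = 0.187). Under 5Aza it was at 7.97, 7.95 and 8.04 in LCA and at 7.05, 7.35 and 7.50 in RCA, a change of 0.69 (SE 0.19, adjusted p = 0.178). Neither change passed the test. To 2 decimals the saline groups met at 7.28, and the 5Aza groups were clearly apart. Rpl22l1, a paralogue outside the symbol rule that mouse Rpl22 represses, was at 7.99, 8.43 and 8.15 in saline LCA against 7.25, 7.80 and 7.70 in saline RCA (change 0.61, adjusted p = 0.0821), and had a change of 0.12 under 5Aza. Rps15a showed the same pattern as Rpl22 at a lower signal, at 5.14, 4.87 and 5.19 against 6.24, 6.13 and 5.20 under saline and at 6.09, 5.71 and 6.02 against 5.50, 5.65 and 5.66 under 5Aza. Its changes were -0.79 (SE 0.25, adjusted p = 0.0633) and 0.33 (SE 0.25, adjusted p = 0.631), and the saline groups were parted by the last digit only.

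Genes picked for other reasons had changes mostly above 0, and none of the members among them passed. Rpl38, needed for translation of Hox messenger RNAs in the mouse embryo, had changes of 0.20 and 0.14, and Rps4x had 0.36 and 0.39 with its groups separated in both treatments. The changes of Rpl13a, Rps19, Rps25, Rpl10a and Rpl3 under saline were 0.43, 0.29, 0.16, 0.17 and 0.14, and that of Rps14 was -0.01. Low values under saline were also found for Rpl21 (-0.38) and Rps20 (-0.32), and Rps20 was -0.41 under 5Aza, with adjusted p between 0.434 and 0.659. The saline value of Rps20 was -0.76 without saline LCA 1, where it passed the test (adjusted p = 0.0333), -0.11 without saline LCA 2 and -0.09 without saline LCA 4. Rps3a1, a small subunit protein whose symbol the rule leaves out, was higher under saline, at 9.38, 10.09 and 9.78 against 8.71, 8.84 and 8.88 (change 0.94, SE 0.20, adjusted p = 0.0188), and had a change of 0.26 under 5Aza.

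Between 5Aza and saline, the median change of ribosomal protein genes lay close to that of all genes. In LCA the median change, 5Aza minus saline, was 0.02 (0.04 over all genes) and 0 of 57 passed limma's test, where 0.462% of all genes did; 2 were higher (3.51%) and 1 lower (1.75%) at an unadjusted p under 0.05, against 10.7% and 7.88% of all genes. In RCA the median was 0.06 (0.01 over all genes), and 0 of 57 passed (0% of all genes), with 0 at an unadjusted p under 0.05, against 3.29% higher and 2.41% lower of all genes. The LCA values of Rpl22 (0.77, adjusted p = 0.0966) and Rps15a (0.87, adjusted p = 0.119) were the highest by the test, and that of Rps7 (-0.66, adjusted p = 0.15) the lowest. Without saline LCA 1, 5 genes passed in LCA: Rpl22 (0.79, adjusted p = 0.02) and Rps15a (0.90, adjusted p = 0.0455) higher, and Rps6 (-1.07, adjusted p = 0.00808), Rps7 (-0.86, adjusted p = 0.011) and Rpl30 (-0.70, adjusted p = 0.0363) lower. The share of all genes called in LCA in that fit is not given here. In its saline flow comparison 30.9% of all genes were called, against 11.5% with all arrays. The LCA comparisons between treatments share the saline LCA samples with the saline flow comparison, so they are not separate evidence.

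The difference between the flow changes, 5Aza minus saline, had a median of -0.06 over the 57 genes (0.04 over all genes), and 0 passed limma's test (0% of all genes), with 2 higher (3.51%) and 1 lower (1.75%) at an unadjusted p under 0.05, against 4.79% and 4.73% of all genes. It was above 0 in 20 of 57 (35.1%), against 53.2% of all genes. Without saline LCA 1, 3 passed: Rpl22 (1.11, adjusted p = 0.0278), Rpl30 (-1.11, adjusted p = 0.0296) and Rps6 (-1.22, adjusted p = 0.0299). The share of all genes called for this difference in that fit is not given here. In its saline flow comparison 30.9% of all genes were called, against 11.5% with all arrays. Saline LCA 1 was below both other saline LCA samples in 29 of the 57 genes, above both in 15 and between them in 13. Even so, saline LCA 1 lay above all saline RCA samples in 37 of 57 genes (64.9%, against 28.6% of all genes). The other 5 LCA samples lay above all RCA samples of their treatment in 37 to 46 (64.9% to 80.7%, against 28% to 33.3% of all genes).

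Several members are covered by more than 1 probe, and these did not always give the same change. Of the 15 genes with more than 1 kept probe, the second brightest gave a higher saline change than the brightest in 8 and a lower one in 6. In 3 genes the probes differed by over 1 under saline. Rps24 ran from -0.92 to 0.96 over 4 probes, with 0.22 for the brightest. Rpl27a ran from -0.09 to 1.11 over 4, with 0.12 for the brightest, and Rps13 had 0.77 in its brighter and -0.48 in its dimmer probe. Under 5Aza these probes of Rps13 had 0.91 and -0.15. Rpl31 was separated in both treatments by its brightest probe, with changes of 0.52 under saline and 0.26 under 5Aza. Its second brightest probe had -0.29 and -0.24, and its dimmest 0.24 and -0.48. Fitting all 79 kept member probes singly, 10 (12.7%) were higher under saline and 0 lower, against 8.24% of all probes called in either direction. Those of Rps10 (adjusted p = 0.0505) and Rps9 (0.0515 and 0.056) did not pass in this fit. The 10 included second probes of Rps2 (0.87, adjusted p = 0.0364) and Rps3 (0.61, adjusted p = 0.0359), whose brightest probes had 0.27 and 0.09. Ribosomal protein genes have many processed pseudogenes, and the match of each probe to them was not checked.

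**Figure D5:**
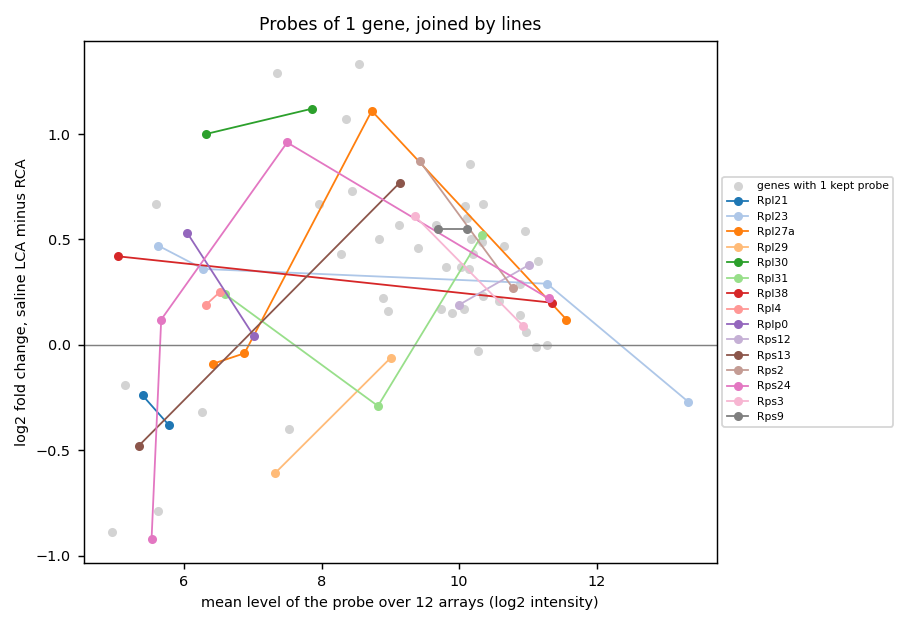
Change under saline (log2 fold change, LCA minus RCA) against the mean level of the probe over 12 arrays (log2 intensity) for the 79 kept ribosomal protein probes; coloured lines join probes of the same gene, for the 15 genes with several, and grey points are genes with 1 kept probe. Probes of Rps24, Rpl27a and Rps13 span more than 1, and Rpl23 falls from 0.47, 0.36 and 0.29 in its dimmer probes to -0.27 in its brightest.

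Rpl23, which can also bind MDM2, shows a limit of the scale. Its brightest probe was the brightest or second brightest of the whole array on all 12 (rank 1 on 9, rank 2 on saline LCA 2, saline LCA 4 and 5Aza LCA 4), and quantile normalisation gives a rank the same value on every array, so that it could only be 13.43 or 13.02. Its saline change of -0.27 (adjusted p = 0.335) therefore counts ranks, and the other 3 probes of the gene had 0.36, 0.29 and 0.47. By signal, the 30 members with a mean level of 10 or more had a median saline change of 0.33, where all 222 such genes had -0.09, and the 15 members between 8 and 10 had 0.46. The 12 members below 8, which include Rpl39l, Rps15a, Rpl22 and Rps20, had a median of -0.08 under saline and 0.46 under 5Aza. These bounds were set after the data were seen.

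Other genes of protein synthesis were taken from lists, and their counts stand beside the 5.29% of all genes higher and 6.24% lower under saline. Of 17 translation factors and other genes with TOP messenger RNAs, 3 (17.6%) were higher under saline and 0 lower, with a median of 0.25 (0.21 under 5Aza). They were Eef1b2, which reloads the elongation factor eEF1A, Npm1, a nucleolar chaperone of ribosome assembly, and Nap1l1, a histone chaperone. Npm1 was at 9.37, 9.96 and 9.97 in saline LCA against 8.46, 8.54 and 8.68 in saline RCA (change 1.21, SE 0.20, adjusted p = 0.00684), and Eef1b2 changed by 1.23 (adjusted p = 0.0148). Of 29 ribosome biogenesis genes, 3 (10.3%) were higher (Polr1d, Polr1e and Taf1d, which serve RNA polymerase I) and 0 lower, with a median of 0.10, 0.12 under 5Aza. Of 74 mitochondrial ribosomal protein genes, 4 (5.41%, close to the share of all genes) were higher and 0 lower, with a median of 0.25, 0.12 under 5Aza. Of 18 genes of mTOR, Myc and TOP control, 0 were higher and 2 (11.1%) lower (Rictor, -0.73, and Mxi1, -1.63), with a median of -0.11, 0.02 under 5Aza. No gene of these 4 lists passed under 5Aza.

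The 5 genes outside the group whose level followed the mean of the 57 most closely over the 12 samples, by Pearson correlation, were Gm4832 (0.972), Rpia (0.952), Rps23rg1, an Rps23 retrogene (0.942), Aif1 (0.935), a macrophage marker, and Lmo4 (0.935). The 12 samples fall into LCA and RCA, so any gene that differs between these correlates with the mean.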

How the data were processed

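Per the file headers, the deposited unprocessed table pairs each sample's intensity with a p-value of detection; the authors exported it with GenomeStudio 2010.3 per the submitters' processing notes. A deposited normalized table, whose intensity columns share 1 distribution, was used as an alternative only; how it was made is not given in the sources used here. Unprocessed values were background corrected with limma's neqc (offset 16, negative controls inferred from detection p-values), quantile normalized and put on log2. Probes detected (p under 0.05) on all 3 samples of a group were kept (21979), and the brightest probe stood for each gene. Of 45281 probes, 34885 had 1 symbol in the platform annotation, 18 several and 10378 none. 1 mean per group was fitted to 12 samples (limma 3.58.1, R 4.3.3), and 5 two-sided contrasts were adjusted by Benjamini-Hochberg over 10596 genes. The fit was checked on simulated data.

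The members, lists and rules were chosen with earlier results of these data known. Named genes are those passing the test or, failing that, the 3 highest and 3 lowest by statistic; the 5 highest and 5 lowest changes; stalk proteins, Rpsa, paralogue pairs and single genes of known separate roles; and genes whose probes differ by over 1. Rpl5, Rpl11, Rpl10, Rpl10l, Rps27 and Rps27a, named by that rule, were not analysed here. Samples ran on 2 microarrays per the series description; which sample was on which is not given in the sources used here. Titles and descriptions number some samples differently, and titles were used. Deviations from the group means correlated weakly between LCA and RCA samples. Under saline, same-numbered samples had 0.03 to 0.06 and differently numbered ones -0.07 to 0.02. Under 5Aza these were -0.03 and 0.02 against -0.03 to 0.05. Numbers were not taken to pair samples in the main fit, and whether they do is not settled by these values. Alternatives covered starting values, scaling, filter, probes per gene, variance model, samples in the fit, replicate blocks and leaving out each array.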

Additional observations from a re-analysis of the deposited data

Results flagged for a closer look

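Rpl22 moved in opposite directions in the 2 treatments: its LCA minus RCA change was 1.09 higher on the log2 scale under 5Aza than under saline (-0.40 under saline, 0.69 under 5Aza), and every LCA sample lay below every RCA sample under saline, where the groups meet at 7.28 to 2 decimals, and above under 5Aza. The difference was tested and did not pass (SE 0.27, limma adjusted p = 0.346).

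Rps15a showed the same, with a difference of 1.12 (-0.79 under saline, 0.33 under 5Aza). Its test gave SE 0.36 and an adjusted p of 0.449. Saline LCA 4 at 5.19 and saline RCA 4 at 5.20 part the saline groups.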

How the results depend on the processing

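The number of ribosomal protein genes called under saline (8) changed with most choices. It was 21 from the deposited normalized table, 21 with no background correction, 15 with offset 50, 3 with common-median scaling, 14 with cyclic loess, 13 with the mean of a gene's probes, 24 with an intensity trend and robust prior, 25 (23 higher, 2 lower) with array weights and 0 with only the compared groups. It was 12 with no filter (20%, against 3.23% of all genes) and 8 with detection on all 12 arrays (14.5%, against 11.4%). With every probe tested it was 9 genes, through 10 of 79 member probes (12.7%, against 8.24% of all probes). Leaving out 1 array, which also changes the genes kept and adjusted over, gave 0 to 22, with 182 to 3467 genes called in all. All genes called numbered 1221, and 1322, 1324, 1260, 883, 1216, 1247, 1537, 3743 and 129 in the order of the first 9 alternatives. No library size enters here: signal over background and 3 arrays per group limit what can be called. The replicate block changed the saline count to 1 (treatment and title number together as the block) or 4 (title number alone). In these fits 276 and 702 genes were called in all. Whether the numbers pair the samples is not known. With the block on treatment and number the comparisons of 5Aza with saline could not be fitted, nor could the difference of the flow changes with only the compared groups. In the other comparisons, where 0 were called, the count was 1 under 5Aza with no filter, and 5 in LCA between treatments and 2 for the difference of flow changes with array weights. Leaving out 1 array gave 0 to 1, 0 to 5 and 0 to 3, the highest each without saline LCA 1. Without that array Rps13 passed under 5Aza by its brightest probe (0.91, adjusted p = 0.033). For these other comparisons the shares of all genes called under the alternatives are not given here.

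The median change was steadier, at 0.25 to 0.43 under saline over the other settings and 0.31 to 0.36 with 1 array left out, and at 0.18 to 0.31 and 0.19 to 0.31 under 5Aza. Common-median scaling gave the lowest saline value, 0.25, a move larger than the spread between samples. The count of genes separated in both treatments, whose alternatives were chosen after seeing the data, was 5 with that scaling, 23 to 27 in the others and 23 to 28 with 1 array left out; the cause was not tested. That scaling sets no common distribution of signals.

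Signs turned in 19 gene values over the other settings and 47 with 1 array left out, of which 0 were called in either fit. With common-median scaling they were Rplp0 under saline (-0.04), Rplp2 under 5Aza (-0.03) and Rps25 in LCA between treatments (-0.02). With cyclic loess they were Rplp2 (0.09) and Rps14 (0.12) under saline, Rps21 (0.07) and Rpl3 (0.08) under 5Aza, Rpl39 (-0.02), Rpl38 (-0.01) and Rps25 (-0.02) in LCA between treatments, and Rps4x in the difference of flow changes (-0.01). Array weights turned Rplp2 (0.01), Rpl39 (-0.24) and Rps27l (-0.07) in LCA between treatments and Rps25 in the difference (0.07). The replicate block turned Rps14 under 5Aza (-0.04) and in the difference (-0.03), Rps21 under 5Aza (0.02) and Rpl36al in RCA between treatments (-0.01).

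With 1 array left out, the saline ranges that crossed 0 were those of Rplp0 (-0.28 to 0.38), Rplp2 (-0.08 to 0.02) and Rps14 (-0.07 to 0.04). Under 5Aza they were Rps21 (-0.09 to 0.06), Rpl6 (-0.38 to 0.17), Rpl3 (-0.11 to 0.05) and Rps14 (-0.01 to 0.09). In LCA between treatments they were Rplp2 (-0.05 to 0.01), Rpl39 (-0.28 to 0.19), Rpl39l (-0.06 to 0.12), Rps27l (-0.10 to 0.17), Rps25 (-0.09 to 0.10), Rps19 (-0.01 to 0.17) and Rps4x (-0.10 to 0.03). In RCA they were Rplp1 (-0.15 to 0.01), Rpl3 (-0.03 to 0.17), Rpl36a (-0.02 to 0.10), Rpl36al (-0.03 to 0.11), Rps25 (-0.08 to 0.09) and Rps4x (-0.12 to 0.03). For the difference they were Rpl17 (-0.21 to 0.86), Rps27l (-0.23 to 0.05), Rpl38 (-0.14 to 0.03), Rps25 (-0.11 to 0.09), Rpl13a (-0.33 to 0.06), Rps19 (-0.06 to 0.12, and 0 with all arrays) and Rps4x (-0.06 to 0.09). The medians between treatments also crossed 0, at -0.04 to 0.02 in LCA and -0.01 to 0.11 in RCA.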
